A study of Mus musculus with 30 samples.

Results

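Basal cells of the mammary gland after a pregnancy were compared with basal cells of virgin glands in K8iDRank mice, in which Rank is deleted from luminal cells but not from basal cells. The comparison was defined by the labels of the libraries and took 8 of the 30 libraries of the series, 4 parous (mice 787, 794, 798 and 830) and 4 virgin (mice 820, 821, 822 and 825), over the 11137 genes of the deposited table. K8iDRank mice carry a doxycycline-dependent activator under the Krt8 promoter, a TetO-Cre, floxed Rank alleles and the mTmG reporter, and K8imTmG mice carry the same transgenes with intact Rank. Both genotypes received doxycycline at 1 mg/ml in the drinking water from week 3 to week 8 of age according to the labels, and every group named here shares that treatment. In the study's methods parous glands were taken after the end of involution. K8iDRank mothers lost their litters at the start of lactation, whereas the pups of K8imTmG mothers were removed from established lactation, so the parous groups of both genotypes also differ in how long they lactated. Basal cells were sorted as CD49f-high CD24-low cells after CD45+ and CD31+ cells had been gated out, 1 library per mouse.

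Basal cells form the outer layer of the mammary epithelium. They contract to eject milk, lie on the basement membrane and in the adult gland rarely give rise to luminal cells, which produce the milk. Rank is the receptor of Rankl, which progesterone induces in hormone-sensing luminal cells, and Rank signals in part through NF-kB. The comparison asks what a pregnancy left behind in Rank-positive basal cells that lie beside Rank-deleted luminal cells.

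The basal K8iDRank libraries held 1200781 to 2996649 deduplicated reads. Sums of the 21 basal identity genes were 9600 to 12190 normalized counts in them and 2304 to 2683 in the 7 luminal K8iDRank libraries, so the label basal was borne out by its markers. Rank itself (Tnfrsf11a) was 81.1, 63.8, 68.7 and 78.1 normalized counts in parous mice 787, 794, 798 and 830, and 45.0, 78.1, 69.8 and 68.7 in virgin mice 820, 821, 822 and 825. The parous and virgin values of Rank overlapped. QuantSeq reads come from the 3′ ends of transcripts and thus check no internal deletion. The parous libraries fell on both sides of a split of unknown origin that the C-type lectin gene Clec2d marks together with 9 other genes. Clec2d was 4.29 and 4.84 in parous mice 787 and 798 (Clec2d-low, below 30) and 78.9 and 68.3 in mice 794 and 830 (Clec2d-high), while all 4 virgin libraries were low at 2.03 to 8.68. Values are therefore also given with mice 787 and 798 as the only parous libraries. Within the virgin group, mice 820 and 825 stood apart on the first principal component (53.2% of the variance), at 78.8 and 49.5 against -27.1 and -16.3 for mice 821 and 822.

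No gene passed an adjusted p of 0.05 in the main test, limma on log2(normalized count + 1), among the 10525 genes that exceeded 10 normalized counts in 2 or more libraries (0% called). The lowest limma adjusted p was 0.197, and at an unadjusted p under 0.05 limma held 494 genes higher and 542 lower in parous cells. On the recovered reads edgeR also called 0 genes, with 488 higher and 573 lower at an unadjusted p under 0.05, whereas DESeq2 called 34 genes higher (0.323% of 10524) and 54 lower (0.513%). The 4 parous values all lay above the 4 virgin values for 290 genes (2.76%) and all below for 352 (3.34%). Among the DESeq2 calls this held for 32 of the 34 higher and 48 of the 54 lower genes. The count of DESeq2 calls moved with single libraries: without mouse 830 it was 15 higher and 33 lower, without mouse 820 it was 20 and 29, and without mouse 822 it was 16 and 34. Of the genes called with all libraries, 12 higher and 25 lower genes were called again in each of the 8 fits that left out 1 mouse. The genes below that DESeq2 called, and those named for values that do not overlap, were picked out after their values had been seen, unless they belong to the first genes of a list or to a named set of alveolar, luminal and Rank genes. Log2 fold changes are limma's, parous against virgin, on the log2(normalized count + 1) scale.

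Genes of blood vessels were lower in parous cells. Of 8 endothelial markers tested, all 8 had a lower mean in parous cells, 5 did not overlap between the groups (beside 3.34% of all genes) and DESeq2 called 6 (beside 0.513%), with a median log2 fold change of -1.65 against 0.00 over all genes. Kdr, the main VEGF receptor of endothelial cells (ENSMUSG00000062960.12, GRCm39 chromosome 5, 76093487 to 76139884, minus strand), was 40.3, 54.2, 46.7 and 32.1 normalized counts in parous mice 787, 794, 798 and 830, and 439.7, 234.4, 434.8 and 101.0 in virgin mice 820, 821, 822 and 825. Every parous library was therefore below the lowest virgin library, and the virgin values were far more spread than the parous ones. The log2 fold change was -2.58 (SE 0.42, limma adjusted p = 0.197, DESeq2 adjusted p = 5.5e-07), and without mouse 825 it was the 1 gene that limma called (-3.03, adjusted p = 0.0207). Pecam1, which encodes the CD31 antigen that the sort gated out (ENSMUSG00000020717.21, chromosome 11, 106543689 to 106641454, minus strand), was 21.0, 33.5, 25.1 and 23.3 in the parous and 99.25, 56.4, 92.8 and 54.8 in the virgin libraries. Its groups did not overlap either, and its log2 fold change was -1.49 (SE 0.26, limma adjusted p = 0.197). The junction gene Cdh5 was 10.3 to 21.5 in parous and 10.7 to 96.85 in virgin libraries, where mouse 825 held the value that overlapped, with a log2 fold change of -1.60 (SE 0.58, limma adjusted p = 0.487).

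**Figure D1:**
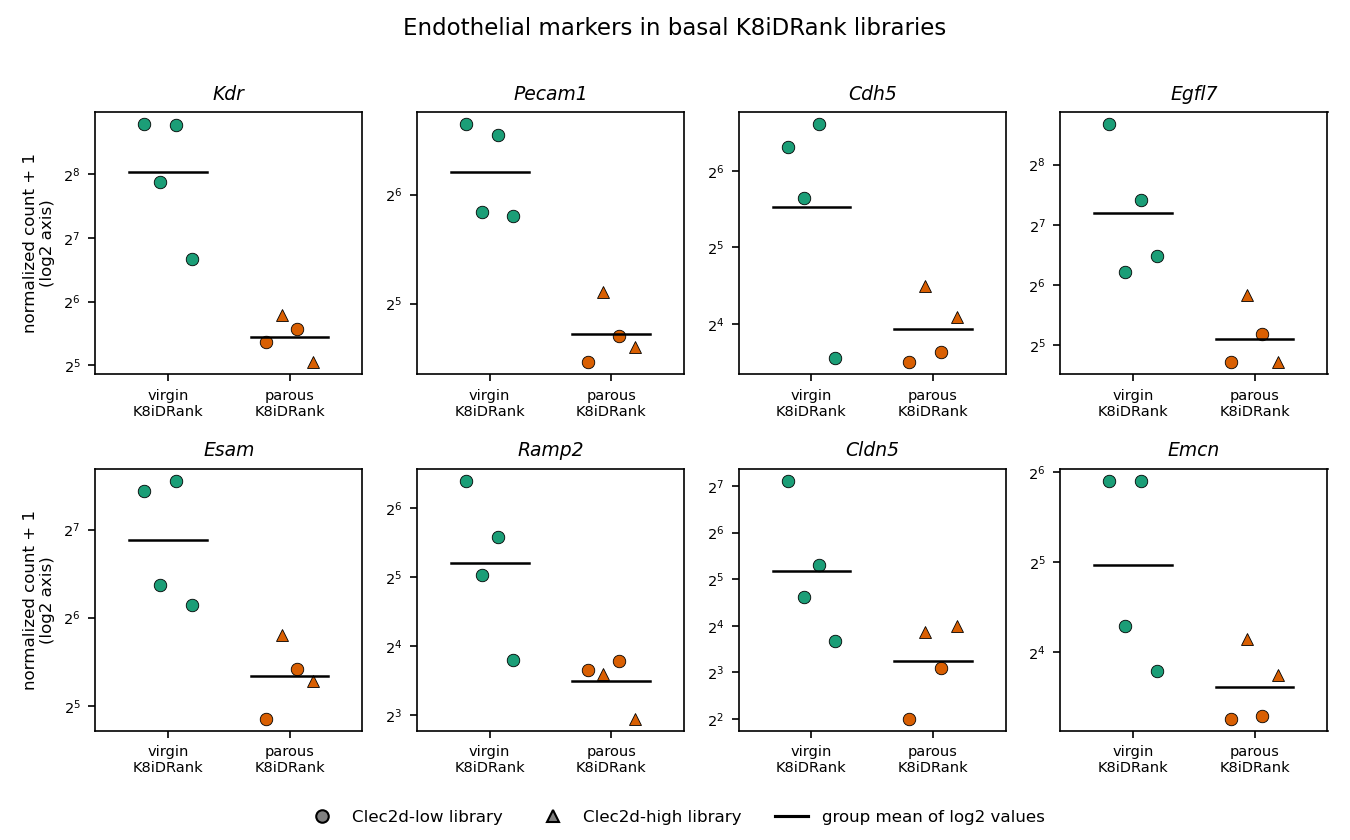
Normalized count + 1 on a log2 axis of the 8 tested endothelial markers in basal K8iDRank libraries, 1 point per mouse, 4 virgin and 4 parous, with circles for Clec2d-low and triangles for Clec2d-high libraries and bars at the mean of the log2 values. For Kdr, Pecam1, Egfl7, Esam and Ramp2 every parous point lies below every virgin point, while Cdh5, Cldn5 and Emcn overlap.

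The other markers of the list had the same direction, Egfl7 at -2.08 (SE 0.49), Esam at -1.54 (SE 0.35), Ramp2 at -1.70 (SE 0.48), Cldn5 at -1.94 (SE 0.68) and Emcn at -1.36 (SE 0.49). Summed over the list, the markers held 148, 261, 189 and 169 normalized counts in parous mice 787, 794, 798 and 830 and 1475, 569, 1125 and 362 in virgin mice 820, 821, 822 and 825, with no marker at 0 in any of the 8 libraries. The virgin libraries ranked differently here than on the first principal component, since mice 820 and 822 held the highest sums. In the luminal libraries of K8iDRank mice the same sum was 33.1 to 71.9. Genes outside the list that DESeq2 called lower, picked from the calls after they were seen and without a count of how many such genes did not move, were the VEGF receptor Flt1 (-2.16, SE 0.44), the capillary lipase anchor Gpihbp1 (-2.28, SE 0.43), the lectin receptor Cd93 (-2.06, SE 0.44), Btnl9 (-2.84, SE 0.57) and the fatty acid transporter Cd36 (-1.70, SE 0.38). In bulk libraries, fewer cells of a type and less RNA per cell cannot be told apart.

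Red cell transcripts moved the same way as the vessel genes. Hba-a2, an alpha globin gene whose reads can be shared with its near-identical copy Hba-a1, was 6.86, 6.38, 4.84 and 4.14 normalized counts in parous and 71.55, 81.9, 14.2 and 23.6 in virgin libraries. The beta globin gene Hbb-bs was 10.1 to 13.45 in parous and 22.55 to 120.3 in virgin libraries, again without overlap. Their log2 fold changes were -2.58 (SE 0.52) and -1.88 (SE 0.45). Hba-a2 exceeded 10 normalized counts only in virgin libraries, so it was tested through the group where it was high. The 3 erythroid markers in the table summed to 17.5 to 21.9 in parous and 47.4 to 239 in virgin libraries. Of the other non-epithelial lists, 9 of 10 fibroblast markers had a lower mean in parous cells (median -0.86, sums of 722 to 976 in parous and 906 to 1346 in virgin libraries). DESeq2 called 1 fibroblast marker lower, beside 0.513% of all genes. The 2 leukocyte markers in the table summed to 19.8 to 64.6 in parous and 8.06 to 56.6 in virgin libraries. The 3 pericyte markers summed to 116 to 156 and 65.5 to 278, and the 1 adipocyte marker was 110.7 to 797 and 141.8 to 955. The part that carry-over of these cell types had in the other differences was not tested.

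Casein genes were higher in parous cells. Caseins are the main milk proteins and are transcribed in alveolar luminal cells through prolactin and Stat5. In the RefSeq promoter table (GRCm38.p6, 250 bases before to 50 after the start of a gene), 3 of the 10 milk genes with an entry held the Stat5 motif TTCNNNGAA, which reads the same on both strands, as did 8.47% of all 27025 promoters and 6.53% of those of tested genes. The 3 genes were caseins, and their matches are shown with the motif in capitals because these caseins were read in parous cells and were near 0 in virgin ones.
Csn2 (chr5:87699376-87699675, minus strand, first motif base 93 before the start): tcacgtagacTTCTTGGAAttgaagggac
Csn1s1 (chr5:87665958-87666257, plus strand, first motif base 100 before the start): tttgtaacaaTTCTTAGAAtttatgtaaa
Csn1s2a (chr5:87774200-87774499, plus strand, first motif base 21 after the start): ttatagtgctTTCTTAGAAttacaatgac
A match describes the letters of the window and not a bound site. In the 144 promoters of the alveolar signature described below, the motif stood in 6.25%.

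Csn1s1 (ENSMUSG00000070702.10, GRCm39 chromosome 5, 87814067 to 87830437, plus strand) was 174, 18.3, 54.1 and 39.8 normalized counts in parous mice 787, 794, 798 and 830, and 0, 4.34, 0 and 3.22 in virgin mice 820, 821, 822 and 825. All 4 parous libraries were above all virgin ones, with the highest value in Clec2d-low mouse 787, and the log2 fold change was 4.59 (SE 0.76, limma adjusted p = 0.197, DESeq2 adjusted p = 0.0031). The virgin libraries held only 0, 7, 0 and 3 reads, so its size depended on the number added before the logarithm. It was 5.15 with 0.5 added in place of 1, and 3.34 with 4 added. Csn2, the beta casein gene (ENSMUSG00000063157.10, on the minus strand of chromosome 5 from 87840483 to 87847489), was 66.1, 4.78, 7.92 and 15.0 in the same parous libraries, while the virgin libraries held 0, 1, 1 and 0 reads. Its parous mean was at least 8.86-fold higher than the level of 3 reads per library in the virgin group, and at least 3.49-fold without mouse 787. Csn1s2a was 68.6, 0, 4.40 and 2.07 in parous libraries and had no read in a virgin library, and was too low to be tested. Csn3, the kappa casein gene (ENSMUSG00000001622.16, chromosome 5, 88073438 to 88080524, plus strand), was 46.3, 132, 81.4 and 151 in parous and 20.8, 22.9, 23.7 and 16.1 in virgin libraries. Here mouse 787 held the lowest parous value, opposite to the other caseins, and the Clec2d-high mice the highest. Csn3 had a log2 fold change of 2.12 (SE 0.35, limma adjusted p = 0.197, DESeq2 adjusted p = 3.4e-05).

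In the luminal libraries of the same mice caseins were more abundant. Csn1s1 was 1146, 566, 249.2 and 1327 in the luminal libraries of parous mice 787, 794, 798 and 830, so the basal value was 15.2%, 3.24%, 21.7% and 3.00% of it. Luminal Csn2 was 694, 8.84, 9.48 and 46.7, with mouse 787 highest in both lineages. Luminal Csn3 was 1004 to 1996 in the 4 parous and 1398 to 2510 in the 3 virgin mice, ranges that overlapped, whereas the basal value was 3.34% to 13.2% of the luminal one in parous and 0.914% to 1.70% in virgin mice. All luminal parous K8iDRank libraries were Clec2d-low and all luminal virgin ones Clec2d-high, so stage and the split cannot be told apart there. Of the luminal keratins, Krt8 overlapped between the groups. Krt8 was 341, 381, 383 and 355 in parous and 455, 260, 253 and 621 in virgin basal libraries, so that the virgin values lay on both sides of the parous ones. Basal Krt8 was 19.5% to 26.5% of the luminal level in parous and 13.4% to 36.0% in virgin mice. Of 13 luminal markers tested, 9 had a higher and 4 a lower mean in parous basal cells. Of them 1 did not overlap upwards and 0 downwards, beside 2.76% and 3.34% of all genes. Their median log2 fold change was 0.37. It was 0.12 with Clec2d-low parous libraries only and 0.85 without mice 820 and 825. The parts of free RNA or of luminal cells in the basal gate in the casein values were not tested.

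Of the 10 milk genes tested, 3 did not overlap upwards (Csn1s1, Csn2 and Csn3, all DESeq2 calls) and 1 downwards, beside 2.76% and 3.34% of all genes and 0.323% that DESeq2 called higher. Their median log2 fold change was 0.72, and 0.43 without mouse 787. Of the list, 15 genes were in the deposited table. Csn1s1 and Csn2 exceeded 10 normalized counts only in parous libraries, so they were tested through the group where they were high. The count and the median of this list are therefore descriptive only. Mfge8, a milk fat globule protein, went against the caseins. It was 1684, 639, 1182 and 1080 normalized counts in parous and 2298, 2472, 2236 and 1875 in virgin libraries, a log2 fold change of -1.03 (SE 0.28, limma adjusted p = 0.394). The list's median turned to -0.59 over the members with a mean of at least 50, which leaves out Csn1s1 and Csn2. Xdh (-0.59) and Plin2 (-0.79), both of the milk fat globule, had lower means, and their groups overlapped.

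**Figure D2:**
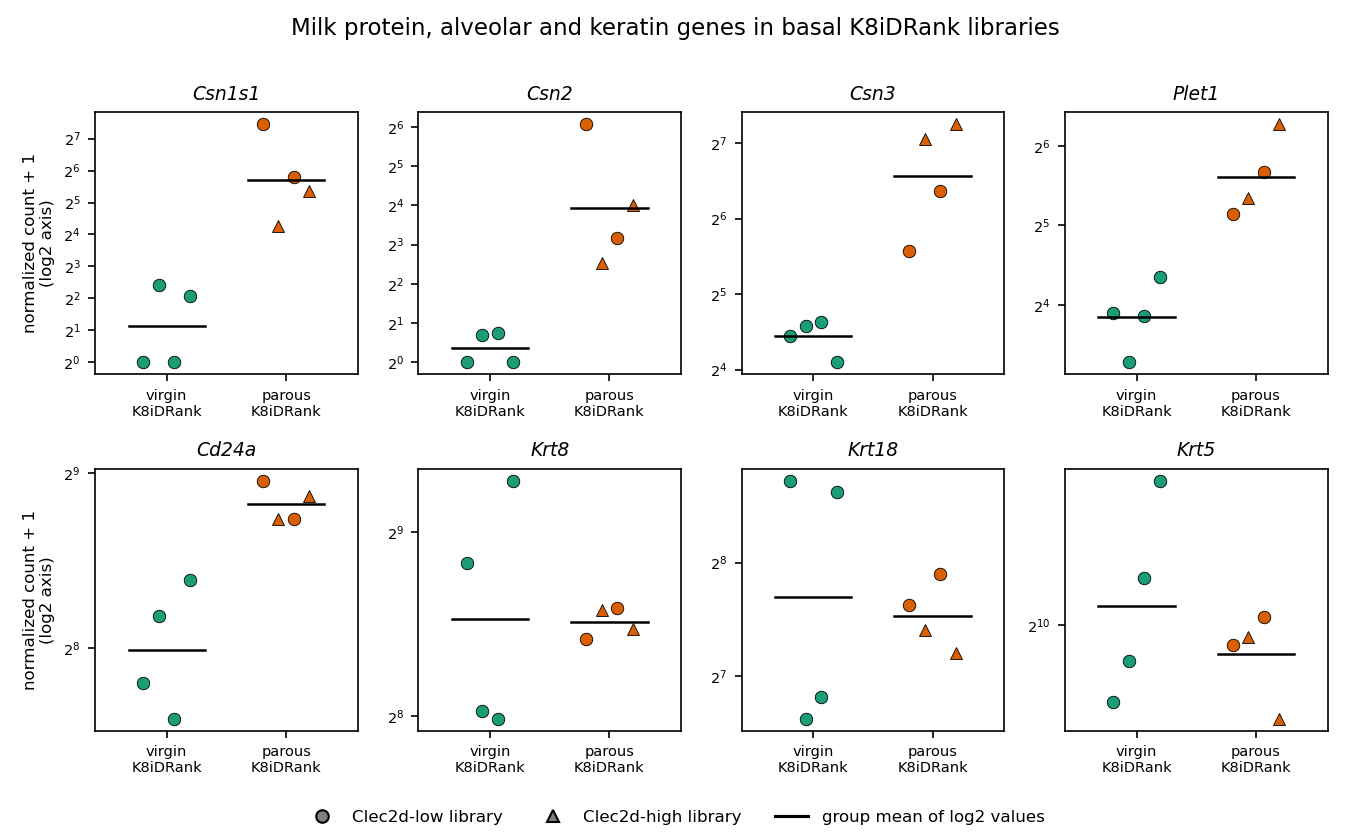
Normalized count + 1 on a log2 axis of 3 casein genes, Plet1, Cd24a and 3 keratin genes in basal K8iDRank libraries, 1 point per mouse, with circles for Clec2d-low and triangles for Clec2d-high libraries and bars at the mean of the log2 values. Parous points of the caseins, Plet1 and Cd24a lie above all virgin points, whereas Krt8, Krt18 and Krt5 overlap and spread more among virgin than among parous libraries.

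Genes of luminal progenitors and alveolar fate were mixed. Plet1, a surface protein of luminal progenitors (ENSMUSG00000032068.16, chromosome 9, 50405817 to 50420299, plus strand), was 34.3, 39.9, 50.2 and 76.6 normalized counts in parous and 13.8, 8.68, 13.5 and 19.3 in virgin libraries. The groups did not overlap, and the log2 fold change was 1.77 (SE 0.32, limma adjusted p = 0.197, DESeq2 adjusted p = 0.00078). The monocyte and progenitor receptor Cd14 was 4.72 to 13.5 in parous and 0 to 3.39 in virgin libraries (2.22, SE 0.64). Like Kit below, Cd14 exceeded 10 normalized counts only in parous libraries, so both were tested through the group where they were high. The cell surface gene Cd24a, whose product sets the sort gate, was 425 to 495 in parous and 192 to 334 in virgin libraries (0.83, SE 0.21, DESeq2 adjusted p = 0.0368). Of other fate genes in the named set, Kit was 3.00, 15.1, 17.6 and 18.1 in parous and 5.77, 4.96, 6.77 and 3.22 in virgin libraries, with Clec2d-low mouse 787 below all virgin values. Elf5, the alveolar transcription factor, was 3.86 to 9.83 and 2.48 to 6.92 and too low to be tested, and the Wnt agonist Rspo1 was 2.39 to 14.2 and 0 to 4.30. Wnt5b (21.5 to 32.1 and 19.8 to 38.1) and the claudin Cldn4 (25.5 to 34.3 and 6.10 to 41.5) overlapped between the groups. Sox10 (-0.51, SE 0.22) and Stat5b (-0.75, SE 0.27) had lower values in every parous library than in any virgin one. Over the 16 tested genes of this list the median log2 fold change was 0.42, but it was 0.01 with Clec2d-low parous libraries only and 0.07 without mouse 822. With genes tested only through parous libraries, such a median is descriptive only.

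The luminal alveolar signature that the study took from an earlier integration of single-cell data (197 genes, 170 tested) had a median log2 fold change of 0.31. Of its tested genes 117 had a higher and 53 a lower mean in parous cells, beside 5289 and 5236 of all genes tested. The groups did not overlap for 16 genes upwards and 7 downwards, beside 2.76% and 3.34% of all genes. DESeq2 called 8 of them higher (Cck, Csn3, Plet1, Csn2, Csn1s1, Ifrd1, Atp6v1b1 and Coq10b) and 1 lower (Rnf125), beside 0.323% and 0.513% of all genes. The hormone gene Cck was 21.0, 46.2, 25.5 and 42.4 in parous and 5.77, 1.86, 2.71 and 8.59 in virgin libraries (2.69, SE 0.45), so that every parous value exceeded every virgin one. With Clec2d-low parous libraries only, the signature's median was 0.23, and over members with a mean of at least 50 it was 0.14. A second alveolar signature, from mid-gestation (45 genes, 39 tested), had a median of -0.03, which leaving out 1 mouse moved between -0.12 and 0.18. Of it, 4 genes did not overlap upwards and 1 downwards, beside 2.76% and 3.34% of all genes. Of the 4, 3 were the caseins Csn1s1, Csn2 and Csn3. The medians of all 3 lists with Csn2 were the same when Csn2 was set at its bound. In each of these lists Csn1s1 and Csn2 passed the filter only through parous libraries. Cck, of the larger signature, passed it only through parous libraries too. The counts and medians of both signatures are therefore descriptive only.

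NF-kB response genes had a median log2 fold change of 0.49 over the 36 tested. Of these 26 had a higher and 10 a lower mean, 4 did not overlap upwards, beside 2.76% of all genes, and 0 downwards. DESeq2 called 1 higher, Icam1, beside 0.323% of all genes. Icam1, an adhesion protein for leukocytes that NF-kB induces (ENSMUSG00000037405.10, chromosome 9, 20926672 to 20940113, plus strand), was 259, 241, 151 and 245 normalized counts in parous and 73.9, 111, 69.1 and 93.4 in virgin libraries. All parous values were above all virgin values, and the log2 fold change was 1.35 (SE 0.24, limma adjusted p = 0.197, DESeq2 adjusted p = 0.0003). The other 3 were the apoptosis inhibitors Birc3 (1.65, SE 0.52) and Birc2 (0.45, SE 0.18) and the kinase Map3k8 (0.94, SE 0.31). Of the first genes of the list, the inhibitor Nfkbia was 1275 to 2456 in parous and 1425 to 1949 in virgin libraries. Tnfaip3, a feedback inhibitor, was 5.15 to 17.6 and 0 to 6.20 (1.81, SE 0.70), and the chemokine Cxcl1 was 75.3 to 303 and 6.92 to 133 (1.96, SE 0.80). For both, virgin mice 820 and 825 held the lowest values. Without these 2 mice the median of the list was 0.24, without mouse 820 alone it was 0.32, and with Clec2d-low parous libraries only it was 0.31. Tnfaip3 exceeded 10 normalized counts only in parous libraries, so it was tested through the group where it was high. The counts and median of the list are descriptive only.

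The NF-kB consensus, searched on both strands, stood in the promoter windows of 17 of 28 genes of the list with an entry (60.7%), beside 8.18% of all 27025 promoters and 10.4% of those of tested genes. The list was chosen as NF-kB response genes, so this share describes the list and is no result of the comparison. Of the 4 genes that did not overlap, these letters were not in the windows of Icam1, Birc3 and Birc2, and Map3k8 had no entry. Matches of 3 of the genes are shown with the consensus in capitals, because Tnfaip3 and Cxcl1 are described above and Ptx3 is a DESeq2 call outside the list.
Tnfaip3 (chr10:19015361-19015660, minus strand, first consensus base 12 before the start): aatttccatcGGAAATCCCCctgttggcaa
Cxcl1 (chr5:90890995-90891294, plus strand, first consensus base 71 before the start): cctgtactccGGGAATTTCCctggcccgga
Ptx3 (chr3:66219637-66219936, plus strand, first consensus base 1 before the start): cccaaatccaGGGGAACTCCctcgcgctgt
Ptx3, a secreted pattern recognition protein, was 128, 275, 236 and 247 in parous and 17.3, 102, 69.8 and 58.0 in virgin libraries (2.01, SE 0.47, DESeq2 adjusted p = 0.00901), without overlap. Rank signalling components themselves had a median of 0.07 over 30 tested genes, with 3 not overlapping upwards (Chuk, Mapk8 and Birc2), 1 downwards (the adaptor Traf6), beside 2.76% and 3.34% of all genes, and 0 calls by DESeq2 or limma. Leaving out 1 mouse moved this median between 0.0091 (mouse 787) and 0.13 (mouse 794). Rankl (Tnfsf11) was 0 to 3.10 normalized counts in the 8 libraries and was not tested.

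Basal identity and contraction showed no call. Of 21 basal identity genes 11 had a higher and 10 a lower mean, with a median log2 fold change of 0.05 that leaving out mouse 821 moved to -0.13. Krt5 was 811 to 1043 in parous and 845 to 1463 in virgin libraries and Krt14 was 1423 to 1796 and 1367 to 3204, the highest Krt14 values being those of mice 820 and 825. The cadherin Cdh3 was the only member of this list whose groups did not overlap, at 147 to 254 in parous and 34.6 to 136 in virgin libraries, beside 2.76% of all genes upwards. Of 17 contractile genes 15 had a lower mean (median -0.40), but with Clec2d-low parous libraries only the median was -0.09, and without mouse 794 it was -0.26. Acta2 was 2409 to 3780 and 2664 to 4158. Only Tagln of the 17 did not overlap, downwards, beside 3.34% of all genes.

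Basement membrane and matrix genes were mostly lower. Of 28 tested genes 21 had a lower mean, and the median log2 fold change was -0.45. Upwards 0 genes did not overlap and downwards 2, beside 3.34% of all genes. DESeq2 called both, beside 0.513% of all genes. Sparc, a matrix protein abundant in basal cells, was 3023, 1883, 2254 and 2694 normalized counts in parous and 5833, 3429, 3859 and 5662 in virgin libraries. The lowest virgin library was above the highest parous library, and the log2 fold change was -0.92 (SE 0.26, limma adjusted p = 0.408, DESeq2 adjusted p = 0.038). The collagen gene Col1a2, which fibroblasts express most, was 51.9 to 80.7 in parous and 98.8 to 170.8 in virgin libraries (-1.01, SE 0.23). Of the first genes of the list, Col4a1 was 305 to 1012 and 567 to 997, Lama5 was 50.6 to 87.4 and 69.8 to 105, and Lamb3 was 171 to 270 and 264 to 362. The median was -0.29 without mouse 794, -0.43 with Clec2d-low parous libraries only, and -0.45 without mice 820 and 825.

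Outside these lists, the lowest DESeq2 p-value among higher genes was that of Fgg, a fibrinogen chain gene, at 70.3, 120.3, 73.9 and 64.1 normalized counts in parous and 24.2, 14.9, 14.2 and 30.1 in virgin libraries (1.95, SE 0.30). Others were the heat shock cofactor Dnajb4 (0.96, SE 0.18), the single-strand DNA binding gene Nabp1 (1.41, SE 0.24), the heme exporter Flvcr1 (1.72, SE 0.34), the ubiquitin ligase adaptor Wsb1 (1.29, SE 0.24) and the cell cycle regulator Sertad3 (1.81, SE 0.35). In all of these the parous and virgin values did not overlap. Dnajb4 was the most even within groups, at 169.8 to 205.5 in parous and 80.8 to 106 in virgin libraries. Among the lower genes that are not of vessels, the guidance ligand Slit2 was 14.6 to 23.3 in parous and 42.8 to 67.7 in virgin libraries (-1.35, SE 0.24), and the glycolytic enzyme Pgam1 was 462 to 795 and 930 to 1510 (-0.95, SE 0.25).

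The medians of several lists depended on which libraries were used. Cell cycle genes had a lower mean in 29 of 35 cases (median -0.55), yet Mki67 was 36.9, 0.80, 6.60 and 71.4 in parous and 0, 124, 100.2 and 48.3 in virgin libraries. Only the replication gene Mcm3 of the 35 did not overlap, downwards, beside 3.34% of all genes. The cell cycle median was -0.24 without mouse 794 and -1.09 without mouse 830, and -0.04 over members with a mean of at least 50. Sums of the 82 cytosolic ribosomal protein genes were 114800 and 98800 in Clec2d-low parous mice 787 and 798, 240000 and 185200 in Clec2d-high mice 794 and 830, and 133500 to 190100 in virgin libraries, and their median of 0.08 became -0.35 with Clec2d-low parous libraries only and -0.10 without mouse 794. Oxidative phosphorylation genes went from 0.36 to -0.01 in the same way. Hormone-sensing luminal markers had a median of -0.36, with 0 of 9 genes not overlapping, beside 2.76% upwards and 3.34% downwards of all genes. That median was 0.22 with array quality weights, 0.11 without mice 820 and 825 and -0.087 without mouse 825. The medians of the remaining epithelial and pathway lists lay between -0.09 and 0.45. Of them, 4 had a DESeq2 call, which was Rsad2 among interferon-stimulated genes, Fzd4 among Wnt genes, Dnajb9 among secretory genes and Cd24a among luminal markers. Rsad2 and Fzd4 were called lower, beside 0.513% of all genes, and Dnajb9 and Cd24a higher, beside 0.323%.

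**Figure D3:**
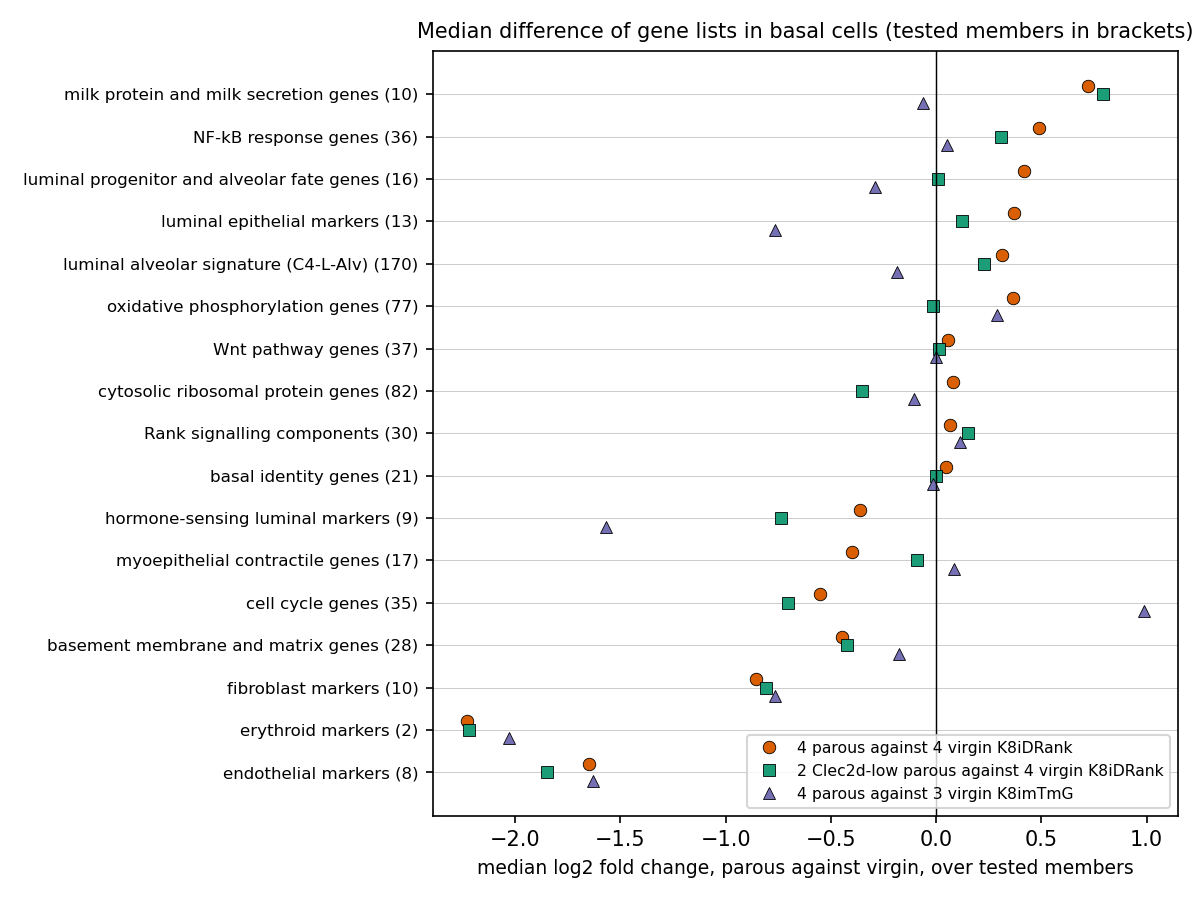
Median log2 fold change, parous against virgin, over the tested members of 17 gene lists, with the number tested over all basal K8iDRank libraries in brackets. Circles stand for all basal K8iDRank libraries, squares for the 2 Clec2d-low parous libraries against the same 4 virgin libraries, and triangles for basal K8imTmG libraries. The erythroid triangle rests on 1 tested gene. Endothelial, erythroid, fibroblast, basement membrane and hormone-sensing lists lie left of 0 in all 3. Milk, NF-kB, luminal marker, alveolar signature and Rank lists lie right of 0 in both K8iDRank comparisons. With Clec2d-low parous libraries only, luminal progenitor (0.0092), Wnt (0.015) and basal (0.00043) lists lie near 0, below the 0.025 of all genes. The NF-kB and Rank lists also lie right of 0 in K8imTmG libraries, whereas the Wnt list is at 0.001 there, beside 0.0029 over all genes.

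With mice 787 and 798 as the only parous libraries, limma called 0 of 10283 genes, with 251 higher and 259 lower at an unadjusted p under 0.05 and a lowest adjusted p of 0.947. On these libraries edgeR called 0 as well, and DESeq2 called 7 higher and 17 lower. Parous and virgin values did not overlap for 865 genes upwards (8.41%) and 776 downwards (7.55%). Mice 787 and 798 are among the parous libraries and the virgin libraries are those of the full comparison, so a gene that did not overlap there cannot overlap here, and values are only given side by side. Kdr had -2.55 (SE 0.57), Pecam1 -1.63 (SE 0.32), Csn1s1 5.49 (SE 0.91), Csn3 1.53 (SE 0.31), Plet1 1.57 (SE 0.37) and Icam1 1.204 (SE 0.30) in log2 fold change. Of the 34 genes DESeq2 had called higher, 2 belonged to the split (Clec2d and Tnfrsf12a) and 32 could be tested here, as could all 54 called lower. DESeq2 called 4 of the 34 and 14 of the 54 in this smaller comparison.

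The same step from virgin to parous in basal K8imTmG cells used 4 parous (mice 532, 534, 557 and 558) and 3 virgin libraries (mice 531, 538 and 568), which held 340445 to 1365008 reads and were all Clec2d-high. There limma called 0 of 10538 genes (432 higher and 537 lower at an unadjusted p under 0.05), and groups did not overlap for 454 genes upwards (4.31%) and 531 downwards (5.04%). The vessel genes had the same direction in both genotypes. The endothelial markers summed to 116 to 228 in parous and 261 to 700 in virgin K8imTmG libraries, with a median log2 fold change of -1.63. Of the 54 genes lower in parous K8iDRank cells, 51 could be tested in K8imTmG cells, 49 had a lower mean in parous cells there, and 17 did not overlap. Csn1s1 was 176, 102, 27.9 and 85.3 in parous and 0, 8.27 and 0 in virgin K8imTmG libraries, again without overlap, and Csn2 was 3.98 to 77.5 and had no read in a virgin library. In these libraries 1 read was worth 1.14 to 3.98 normalized counts in parous and 1.44 to 5.43 in virgin mice. The lowest parous Csn2 value was thus 1 read, below the level of 3 reads in every virgin library (4.31 to 16.3). Csn3 overlapped, at 23.9 to 119 and 16.3 to 57.9. Of the 34 genes higher in parous K8iDRank cells, 13 had a higher mean in parous K8imTmG cells and 2 did not overlap upwards.

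The difference between the parity steps of both genotypes was tested directly. In limma 0 of 10607 genes (0%) passed an adjusted p of 0.05, with 580 larger and 502 smaller in K8iDRank cells at an unadjusted p under 0.05, and DESeq2's interaction term called 9 and 1. Plet1 was 16.7, 10.7, 7.96 and 25.03 in parous and 66.1, 33.1 and 10.9 in virgin K8imTmG libraries, so its mean was lower after parity there and higher in K8iDRank cells. The K8imTmG values overlapped and rested on few reads. Those of parous mouse 557 (7.96) and virgin mouse 568 (10.9) lay below the level of 3 reads, which was 11.9 and 16.3. The interaction of Plet1 was 2.79 (SE 0.69, limma adjusted p = 0.313, DESeq2 adjusted p = 0.0099). Flvcr1 (DESeq2 adjusted p = 0.00103), Utp14b (0.00222), Ptx3 and Angptl4 (both 0.0099), Bcl2l11 (0.0163), Tnfrsf12a (0.0259), Skil and Coq10b (both 0.0281) were the other genes with a larger step in K8iDRank cells, and the Wnt antagonist Nkd2 (0.0263) had a smaller one. Tnfrsf12a is a gene of the split. For Icam1 (1.52, SE 0.51, limma adjusted p = 0.388) and Csn3 (1.28, SE 0.69, limma adjusted p = 0.539) neither tool called the interaction. In the virgin groups genotype and the Clec2d split cannot be told apart.

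**Figure D4:**
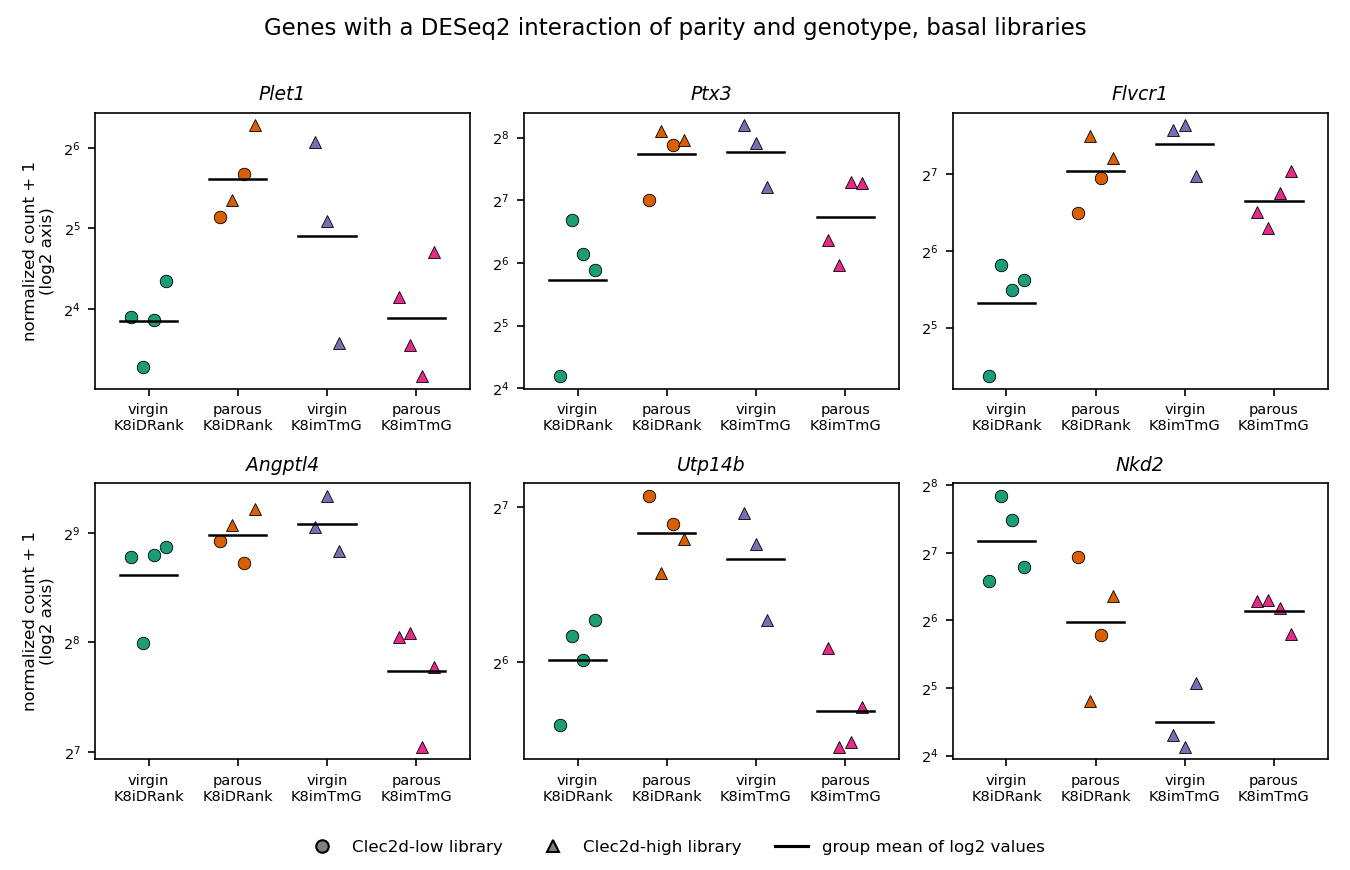
Normalized count + 1 on a log2 axis of 6 genes that DESeq2's interaction term called, in virgin and parous basal libraries of both genotypes, 1 point per mouse, with circles for Clec2d-low and triangles for Clec2d-high libraries and bars at the mean of the log2 values. Plet1, Ptx3, Flvcr1, Angptl4 and Utp14b have a higher parous than virgin bar in K8iDRank and a lower one in K8imTmG, and Nkd2 the reverse.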

How the data were processed

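The deposited table held normalized counts (unit signal), which the authors made from QuantSeq 3′ libraries with 6-nt molecular identifiers using UMI-tools, Bowtie2, SAMtools, bedtools, FastQC 0.11.9 and DESeq2 on GRCm39. Whole reads were recovered by dividing by each library's step (tolerance 0.01 reads). 1 read was worth 0.429 to 1.15 normalized counts in the 8 basal K8iDRank libraries. Precision is limited by 4 mice per group, and floors (3 reads per library) cover counting error only. Parity was tested with limma 3.58.1 (R 4.3.3, trend, Benjamini-Hochberg) on log2(normalized count + 1) for genes above 10 in 25% of the libraries compared. DESeq2 1.42.0 and edgeR 4.0.16 on recovered reads, other pseudocounts, filters, scalings and weights, and leaving out mice were alternatives. Scripts were tested on simulated data. Members and lists were chosen with earlier results of these data known. Named genes were the first 3 of each list, called genes, and a set of alveolar, luminal and Rank genes. Since limma called none, DESeq2 calls and genes that did not overlap were added after their values were seen. The alveolar signatures came from other studies. Promoter sequences are RefSeq's (GRCm38.p6), and gene coordinates are GRCm39. 1 library per mouse was analysed, and RNA quality per library was not used here.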

Additional observations from a re-analysis of the deposited data

Results flagged for a closer look

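In 5 groups of 4 libraries, 1 library lay far from the other 3 by Dixon's criterion, among 126 groups examined, and chance gives about 1 in 20. Csn2 was 66.1 in parous mouse 787, with the next value at 15.0. Icam1 was 151 in parous mouse 798, where the next value was 240.7, and the direction against virgin libraries was the same in all 4. Birc2 was 50.8 in virgin mouse 820 and 60.8 in the next. Fibroblast markers summed to 976 in parous mouse 830 and 748 in the next, and ribosomal protein genes to 190059 in virgin mouse 825 and 142275 in the next.

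For 10 genes the step from virgin to parous differed between K8iDRank and K8imTmG basal cells in DESeq2's interaction term, by log2 values of 3.19 for Plet1, 2.84 for Ptx3, 2.43 for Flvcr1, 2.34 for Tnfrsf12a, 2.07 for Coq10b, 1.85 for Utp14b, 1.63 for Angptl4, 1.24 for Bcl2l11, 1.17 for Skil and -2.80 for Nkd2. In limma none of the 10 passed (adjusted p of 0.254 to 0.313).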

How the results depend on the processing

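No paired analysis was possible because virgin and parous libraries came from different mice. Against 0 limma calls, array quality weights gave 94 genes higher and 120 lower, DESeq2 gave 34 and 54, and leaving out a mouse gave 0 to 1 lower (Kdr, without mouse 825). With Clec2d-low parous libraries only, weights gave 177 and 177, and DESeq2 7 and 17. For the difference between genotypes DESeq2 gave 9 and 1. The following alternatives for DESeq2 and for groups that do not overlap, and leaving out mice 820 and 825, were chosen after seeing the data. Leaving out 1 mouse gave 15 to 43 higher and 29 to 66 lower DESeq2 calls, and 352 to 530 and 450 to 660 genes without overlap. Genes without overlap were 865 and 776 with Clec2d-low parous libraries only, and 1043 and 1168 without mice 820 and 825, where fewer libraries are compared. Median log2 values of lists moved as follows. At a mean of at least 50, milk was -0.59, luminal progenitor -0.19 and the larger alveolar signature 0.14. With weights, hormone-sensing was 0.22, basal -0.0899, contractile -0.076 and NF-kB 0.26. With Clec2d-low parous libraries only, luminal progenitor was 0.0092 and NF-kB 0.31, and, there and with the Clec2d class as a covariate, contractile was -0.0903, Rank signalling 0.15, ribosomal -0.35 and oxidative phosphorylation -0.013. Without mice 820 and 825, luminal progenitor was 0.75, hormone-sensing 0.11, basal -0.17, NF-kB 0.24, Rank signalling -0.0035 and fibroblast -0.49. Leaving out 1 mouse gave 0.069 to 0.67 for luminal progenitor and -0.13 to 0.046 for basal. Other medians that 1 mouse moved by over 1.5 times include luminal markers (0.21 without mouse 822, 0.63 without mouse 820). The cause was not tested. No gene named with a fold change changed direction in any alternative run.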
